A study of Homo sapiens with 6 samples.

Results

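Control 293T cells are described here from 2 of the 6 libraries of the series, chosen as every library whose label names it Control. The labels give these cells the genotype WT and the treatment None, and call the 2 libraries of a group biological replicates. The other 4 libraries came from cells with an MLL2 knockout or a PRMT1 knockdown and are not used. In the headers of the count files the control alignments carry the name WTshNT, which the labels do not explain, so whether the control cells held a hairpin is not known. Nothing in the labels says whether the 2 libraries came from separate cultures, so the spread between them may be technical. The cells are 1 transformed line grown from embryonic kidney, not kidney tissue.

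293T is a derivative of HEK293, a human embryonic kidney line transformed with adenovirus DNA, and it also makes the large T antigen of SV40. The line grows fast, takes up DNA readily and is used to make proteins and viral vectors. Its cell of origin is debated, since cultures of embryonic kidney also hold mesenchymal, neuronal and adrenal cells. Every cell type keeps a common set of genes on for making proteins, copying DNA and producing energy, and adds the genes of its own lineage. Viral genes carried by the line are not in the gene annotation and were not analysed here.

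Levels are given as TPM, which divides each gene's count by its exon length before scaling to a fixed total, or as CPM, which scales the count without regard to length. Levels of different genes are compared by TPM, and a rank by counts is named as one. Paired values are always those of Control 1 and then Control 2, which summed to 20614522 and 20925045 counts. A gene was classed as expressed when both libraries reached 1 TPM and 10 counts. A gene with 3 counts or fewer in each library was at the floor, and the rest were low. A count of 0 allows a level of up to 3 counts, which is 0.146 and 0.143 CPM, or 0.342 and 0.321 TPM in a gene of 1 kb. Such limits cover counting error only.

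Of 60669 annotated genes, 13521 were expressed, 7727 were low and 39421 were at the floor, 34842 of these with no count at all. Among 19868 protein-coding genes, 11448 (57.6%) were expressed and 5555 (27.96%) were at the floor. Long noncoding RNAs reached the threshold in 1263 of 15914 genes and pseudogenes in 573 of 15186. The expressed protein-coding genes had a median of 14.6 TPM with quartiles of 5.89 and 34.8. Most of them, 6167, lay between 10 and 100 TPM. A small group of 67 genes at 1000 TPM or more held 26.3% of all protein-coding TPM. Each list of genes is read against 2 values over all protein-coding genes, the 57.6% expressed and the median of 3.20 TPM, and no list was tested.

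One property of the counting has to be read beside every silent gene. With the settings in the file headers, a read that lies in exons of more than 1 gene on the same strand is assigned to none of them. Protein-coding genes with no shared exon base were expressed in 58.9% of 16395 cases. Those with more than 90% of their exon bases shared were expressed in 3 of 459, and 408 were at the floor. EEF1G, a subunit of the translation elongation complex, is an example, with 0 counts in both libraries and 99.7% of its exon bases shared. TREX1, a DNA exonuclease whose exons lie inside those of ATRIP, also had no count. NUSAP1, a spindle protein, shared 81.4% of its exon bases and held 10 and 10 counts. The part of exon sharing in these zeros was not tested, and shared percentages are given with a gene's value where they reach 50%.

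Near-identical copies can lose reads too where a minimum mapping quality is set, as it was here. HSPA1A and HSPA1B, the stress-induced HSP70 genes, both had 0 counts. HSPA1A shared no exon base with another gene, and HSPA1B shared 36.6%. All 45 genes listed on both X and Y had 0 counts, among them SLC25A6, which codes for an ADP/ATP carrier. U2AF1, a splicing factor, stood at 0.462 and 0.365 TPM. The part of mapping quality in these values was not tested. The class of such genes is uncertain, and a floor value for them is not evidence of a silent gene. Annotated exon length matters as well, because it joins the exons of every transcript of a gene, so genes with long, rarely used transcripts have low TPM.

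**Figure D1:**
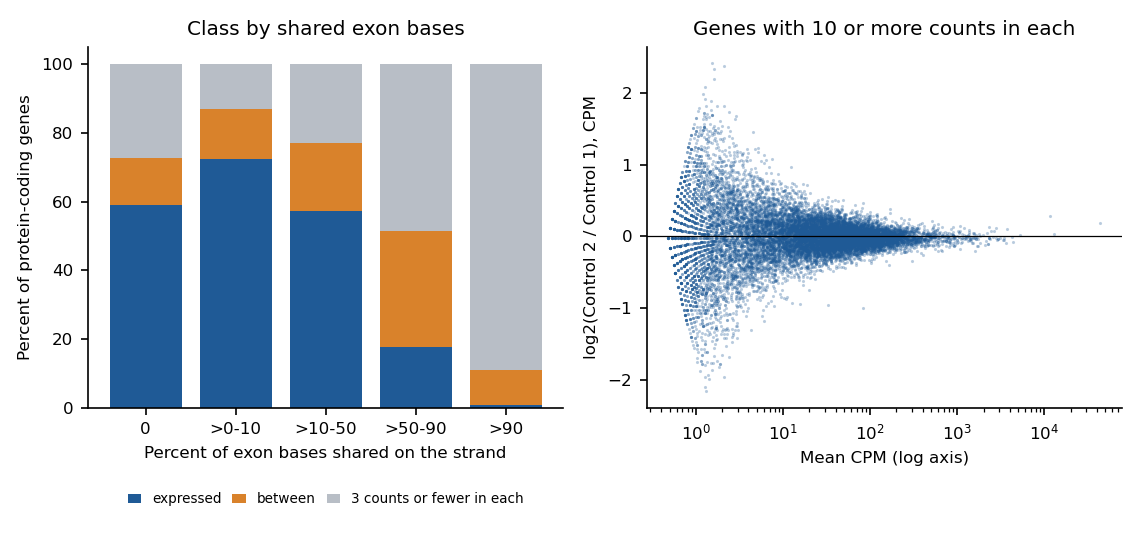
Left, percent of protein-coding genes in each class (stacked bars) by the percent of their exon bases shared with another gene on the same strand. Expressed genes made up 58.9% with none shared, 72.5% above 0 to 10% and 57.2% above 10 to 50%. They made up 17.7% above 50 to 90% and 0.654% above 90%. Right, each point is a gene with at least 10 counts in each library, with the mean CPM on a log axis and the log2 ratio of Control 2 to Control 1; the spread narrows as the level rises.

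The single most abundant RNA by either measure was 7SL, the RNA scaffold of the signal recognition particle, which guides secreted proteins to the endoplasmic reticulum. RN7SL1 held 847358 and 976914 counts. That was 4.11% of Control 1 (95% Wilson interval 4.10 to 4.12) and 4.67% of Control 2 (4.66 to 4.68). Per length it took 32.3% and 34.9% of all TPM. Its near copy RN7SL3 stood at 21064 and 21838 TPM. RN7SL2, the other 7SL gene on chromosome 14, had 0 counts, with 100% of its exon bases shared with an unnamed gene. The copies are nearly identical, so how the 7SL counts divide between the genes is uncertain.

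Because 7SL is short and abundant, the share of an RNA class depends on the unit. Protein-coding genes held 92.3% and 91.6% of counts, but 57.5% and 54.7% of TPM. SNORD3A, the U3 small nucleolar RNA that guides cleavage of the ribosomal RNA precursor, took 1.04% and 1.27% of counts. It was the second RNA by TPM, at 35015 and 40477. Both small RNAs were higher in Control 2, and a higher share for them lowers the TPM of every other gene in that library. Nuclear ribosomal RNA genes, 52 in the annotation, had 0 counts. The kit named in the labels removes ribosomal RNA, and a minimum mapping quality was set. The part of either in these zeros was not tested.

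**Figure D2:**
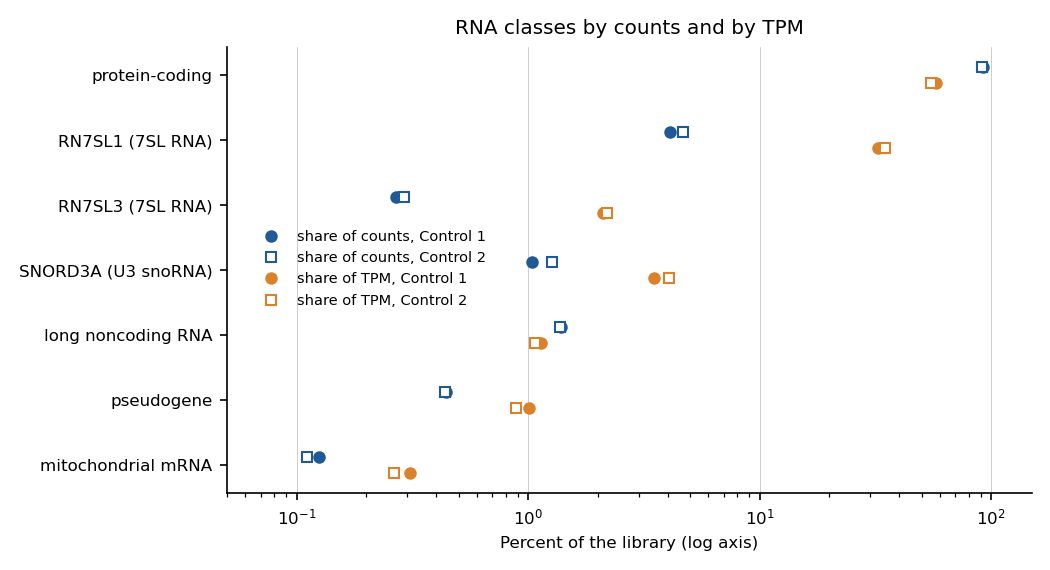
Percent of each Control library (log axis) held by RNA classes and by 3 single RNAs, by counts (blue) and by TPM (orange); filled dots are Control 1 and open squares Control 2. RN7SL1 moves from 4.11% and 4.67% of counts to 32.3% and 34.9% of TPM, and protein-coding genes move the other way.

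Few other small RNAs were counted. Of 33 structural RNAs on a fixed list, 12 were expressed and 14 were at the floor. The latter included RN7SK, RMRP and RPPH1, all of whose exon bases are shared with a second entry. Counts were present for 7SK-like pseudogenes, with RN7SKP80 at 928 and 440 TPM. The floor value of RN7SK is therefore not evidence that 7SK RNA was absent. RNU4-2, the U4 RNA of the spliceosome, stood at 233 and 121 TPM from 288 and 159 counts, one of the widest gaps between the 2 libraries. VTRNA1-3, a vault RNA, stood at 152 and 164 TPM and RNY1, a Y RNA, at 18.2 and 13.2. A gene shorter than a sequenced fragment is counted poorly by this kind of library, and levels of such genes are not comparable with those of long genes.

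Histone messenger RNAs led the protein-coding genes. Replication-dependent histone genes package newly copied DNA, are made in S phase and end in a stem loop rather than a poly(A) tail, so total RNA libraries keep them. Of 56 such genes 41 were expressed, with a list median of 487 TPM. Their summed TPM equalled 11.8% and 12.3% of that of genes classed as protein-coding. That total leaves out H3C2, which had no class at hand but is in the histone sum. The linker histone H1-2 was the highest at 8277 and 8267 TPM. H1-4, another linker histone, followed at 7157 and 7142. Core histones came next, with H3C2 at 6116 and 6169, H2BC12 at 5481 and 5634 and H4C3 at 4550.2 and 4292 TPM. Genes coding for the same protein differed widely, since H4C4 reached 3279.8 and 3319 TPM and H4C12 9.72 and 5.25, while H4C6 had 0 counts. H1-5 also had 0 counts and H1-1 stood at 2.72 and 1.13 TPM. Histone genes are short copies of one another, so their division among genes is uncertain where reads fit several.

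Many of these genes carry a TATA box, the sequence bound by the TATA-binding protein just upstream of a start site. TATAAA, searched on the gene's strand in a window of 250 bases before to 50 after the RefSeq start, occurred in 27 of 49 histone promoters. In 26 of them all its letters lay within the stretch from 40 to 16 bases upstream of the start. The same letters occurred in 6.90% of all 15422 protein-coding windows and in 3.37% of those of expressed genes. They occurred in 2 of 63 windows of ribosomal proteins and 2 of 33 of translation factors. 4 high histone genes and 2 translation genes that hold TATAAA are shown as examples of its position. Each is given as the 60 bases that end at base -1, from RefSeq on GRCh38.p14, with TATAAA in capitals.
H1-4 (chr6:26156269-26156328, plus strand): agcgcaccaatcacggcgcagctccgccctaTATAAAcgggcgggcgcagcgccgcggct
H2BC12 (chr6:27146859-27146918, minus strand): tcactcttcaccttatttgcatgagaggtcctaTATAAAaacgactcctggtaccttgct
H4C4 (chr6:26189113-26189172, minus strand): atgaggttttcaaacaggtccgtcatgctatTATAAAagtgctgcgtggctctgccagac
H2AC13 (chr6:27808113-27808172, plus strand): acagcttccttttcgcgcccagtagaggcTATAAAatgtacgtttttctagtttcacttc
EEF2 (chr19:3985464-3985523, minus strand): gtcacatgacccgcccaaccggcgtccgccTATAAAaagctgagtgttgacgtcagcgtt
RPLP0 (chr12:120201112-120201171, minus strand): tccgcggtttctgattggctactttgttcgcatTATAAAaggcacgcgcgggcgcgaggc
The histone windows also held CCAAT, searched on both strands, in 42 of 49, against 36.6% of all windows. A match is a run of letters and not a shown binding site.

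Ribosomal proteins, the structural proteins of the ribosome, took 15.2% and 14.8% of protein-coding TPM. All 47 large-subunit genes were expressed, with a median of 862 TPM. Of the 32 small-subunit genes 31 were, with a median of 698. RPS12 was the highest at 4191 and 3544 TPM, ahead of RPS2 at 3582 and 3646 and RPL7A at 3529 and 3251. The subunits are needed in equal number, but the values ran from there down to 18.1 and 15.6 for RPL36A and 10.4 and 7.85 for RPS10, which shares 40.3% of its exon bases with a readthrough gene. Paralogs of ribosomal proteins were present as well, with RPL26L1 at 177 and 153, RPL22L1 at 80.1 and 77.6 and RPL39L at 71.9 and 66.7 TPM. RPL22L1 exceeded its parent RPL22, which stood at 48.9 and 47.1. The muscle paralog RPL3L was low at 0.538 and 0.736.

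Translation factors were led by EEF1A1, which brings aminoacyl-tRNA to the ribosome, at 5474 and 5326 TPM. By counts it was the highest protein-coding gene, with 262740 and 272832 counts. EEF2, the translocation factor, stood at 3054 and 2940.3 TPM. The tissue-restricted form EEF1A2 was expressed at 21.6 and 20.8 TPM. EIF4A1, the helicase of the initiation complex, was listed at only 7.70 and 7.96 TPM, with 48.6% of its exon bases shared with a readthrough gene, while its relative EIF4A2 stood at 151 and 149.9. Every one of 20 cytosolic tRNA synthetase genes was expressed, from 26.97 and 28.3 TPM for CARS1 to 529.7 and 503 for IARS1. The list median of 172 TPM was above that of translation factors, 126. Mitochondrial ribosomal proteins were expressed in 76 of 78 genes.

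Folding and turnover genes formed the next layer. HSP90AB1, the constitutive HSP90, stood at 1213 and 1145 TPM and the inducible HSP90AA1 at 232 and 241. HSPA8, the constitutive HSP70, reached 1120.1 and 987 TPM. All named subunits of the CCT ring, which folds actin and tubulin, were expressed, with CCT3 at 928 and 872 and the testis form CCT6B at 1.92 and 2.19. In the endoplasmic reticulum CANX, a lectin chaperone, was at 584 and 543 TPM and HSPA5, which binds unfolded proteins, at 79.6 and 91.3. Proteasome genes were expressed in 32 of 37 cases. The exceptions were the tissue-specific PSMA8 and PSMB11, both at 0, and the immune subunits. PSMB8 held 0 and 1 counts, PSMB9 16 and 21 and PSMB10 4 and 15.

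Energy genes were almost all on. The 16 glycolysis enzymes were all expressed, led by GAPDH at 2346 and 2175 TPM and ENO1 at 1581 and 1477. ALDOA, the common aldolase, was listed at 10.5 and 11.6 TPM, below its brain form ALDOC at 26.2 and 25.4. ALDOA shares 29.7% of its exon bases with another entry. LDHA stood at 376 and 338 and LDHB at 117 and 117, and the testis form LDHC was also expressed, at 17.7 and 18.2 TPM. The liver isozyme PKLR had 0 counts. Among hexokinases HK1 stood at 63.4 and 60.8 and HK2 at 33.4 and 33.9. CKB, the brain creatine kinase, reached 561 and 601 TPM and the muscle form CKM 0.366 and 0.343.

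All 46 nuclear genes of the respiratory chain on the list were expressed, with a median of 128 TPM. The 13 messenger RNAs of the mitochondrial genome were expressed too but held only 0.125% of counts in Control 1 (95% Wilson interval 0.123 to 0.126) and 0.1104% in Control 2 (0.109 to 0.112). They were uneven. MT-CO3, a subunit of cytochrome oxidase, stood at 2067 and 1834 TPM and MT-CO1, another, at 667 and 533. MT-ND2, a subunit of complex I, stood at 7.77 and 4.51. The nuclear partner COX8A was at 769.7 and 770.3 TPM. Copies of mitochondrial DNA in the nuclear genome lower the mapping quality of some of these reads, and that part was not tested.

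Genes of the dividing cell were on without exception for replication and with 1 exception for mitosis. All 39 replication genes were expressed, with PCNA, the sliding clamp, at 818 and 757 TPM and MCM7, a helicase subunit, at 476 and 446. TOP2A, which untangles chromosomes, led the mitosis list at 339 and 317 TPM. CCNB1, the mitotic cyclin, stood at 301 and 269.6 and MKI67, a proliferation marker, at 22.7 and 17.3. The only mitosis gene not expressed was NUSAP1, described above. Among the E2F factors that drive S phase, E2F4 stood at 64.7 and 66.7 and E2F1 at 57.7 and 62.4 TPM. All 22 listed tumour suppressors and cell cycle inhibitors were expressed as RNA. RB1, whose protein large T antigen binds, was at 14.3 and 13.2 TPM. CDKN1A, a cell cycle inhibitor, stood at 28.7 and 29.6 and CDKN2A, which codes for p16 and ARF, at 41.04 and 44.5. DNA repair genes were expressed in 29 of 30. XRCC6, a Ku subunit, reached 895 and 838 TPM, and MGMT, which removes methyl groups from guanine, had 0 counts in both libraries.

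Chromatin enzymes were broadly present at moderate levels. PRMT5, the main symmetric arginine methyltransferase, stood at 155 and 157 TPM. PRMT1, the main asymmetric one and the target of the knockdown in the series, stood at 146 and 144 TPM. The other expressed members ran from 22.4 and 18.7 for PRMT9 to 42.8 and 41.4 for PRMT3, and PRMT8, a brain form, had 0 counts. Histone methyltransferases and demethylases were expressed in 38 of 42. KDM1A, a lysine demethylase, led at 158 and 145 TPM. The large H3 lysine 4 methyltransferases stood lower. KMT2C was at 13.5 and 10.1 TPM and KMT2A at 4.45 and 3.67. KMT2D and KMT2B, both of which have carried the name MLL2, stood at 2.51 and 1.80 TPM and at 1.47 and 1.56 TPM respectively. EZH2, the Polycomb methyltransferase, stood at 46.5 and 44.2 TPM. DNMT1 at 58.8 and 56.6 and DNMT3B at 28.3 and 25.97 were the highest DNA methyltransferases, and DNMT3L had 0 counts.

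Long noncoding RNAs held 1.39% and 1.38% of counts. The 4 highest of 200 bases or more were host genes of small nucleolar RNAs. GAS5 stood at 207 and 194 TPM, SNHG16 at 209 and 183, SNHG29 at 181 and 172 and SNHG1 at 148 and 152. NORAD, which binds Pumilio proteins, was at 143 and 134 TPM and the nuclear MALAT1 at 106 and 91.6. NEAT1, the scaffold of paraspeckles, stood at 4.18 and 4.29. HOTAIRM1, transcribed from the HOXA cluster, was at 26.9 and 30.4 TPM and HOTAIR, from the HOXC cluster, at 9.91 and 10.3. MEG3 and LINC-ROR had 0 counts. Of 54 such RNAs known by name, 32 were expressed.

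MIR17HG, the host transcript of the miR-17-92 cluster, stood at 55.1 and 55.4 TPM, the highest of the miRNA host genes on that list. miRNAs pair with messenger RNAs through their seed, bases 2 to 8. The mature miRNAs themselves are too short for these libraries, so the host says nothing of their amount. Their sequences from RefSeq, with the seed in capitals, show which members of the cluster share one.
hsa-miR-17-5p: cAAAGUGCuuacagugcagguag
hsa-miR-20a-5p: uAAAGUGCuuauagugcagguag
hsa-miR-18a-5p: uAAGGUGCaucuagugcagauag
hsa-miR-19a-3p: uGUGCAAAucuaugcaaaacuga
hsa-miR-19b-3p: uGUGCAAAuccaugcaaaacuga
hsa-miR-92a-3p: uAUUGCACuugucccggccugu
The first pair shares the seed AAAGUGC, miR-18a-5p differs from it in 1 base, the miR-19 pair shares GUGCAAA, and miR-92a-3p has its own. DICER1, which cuts miRNA precursors, was at 26.2 and 22.8 TPM, and AGO2, which holds the mature strand, at 9.69 and 7.998.

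The lineage lists gave no single identity. Factors of kidney development were expressed in 18 of 33 cases, with a list median of 1.20 TPM. Of its 8 defining members 3 were expressed. The list's 54.5% expressed is close to the 57.6% over all protein-coding genes, so the count does not set kidney factors apart. FOXC1, a forkhead factor of mesoderm, was the highest at 38.97 and 37.03 TPM. SIX4, a homeobox factor of early nephron mesenchyme among other tissues, was at 14.5 and 14.2. FOXD1, a factor of kidney stroma, stood at 16.3 and 14.7. SIX2, which keeps nephron progenitors undivided in fate, stood at 7.55 and 7.17 TPM, and SALL1, a partner, at 2.36 and 3.002. WT1 was near the threshold at 1.18 and 1.22. The list was incomplete at its core, since PAX8 had 0 counts and PAX2 held 8 and 11 counts. OSR1 differed between libraries, with 24 and 0 counts, and LHX1 held 11 and 31.

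Few markers of finished nephron segments were expressed. Of 14 proximal tubule markers only LRP2, the endocytic receptor megalin, was expressed, at 7.21 and 7.06 TPM. Its partner CUBN held 12 and 23 counts, and the transporters SLC34A1 and SLC22A6 had none. In the collecting duct list 8 of 10 were at the floor. There AQP3 stood at 1.72 and 2.13 TPM while AQP2 and SCNN1B had 0 counts. Of 10 loop and distal markers 1 was expressed, 5 were low and 4 were at the floor, UMOD and SLC12A1 with 0 counts. Podocyte markers were expressed in 5 of 12, with CD2AP at 20.1 and 20.4 and PODXL at 6.07 and 4.93, but NPHS1 held 0 and 1 counts.

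Adrenal and neuronal lists were mixed. Of 15 adrenal cortex markers 3 were expressed, FDX1, FDXR and SCARB1, all of which other tissues use as well. The defining NR5A1 held 1 and 2 counts, STAR 0 and 3 and CYP11A1 0 and 2. The sympathoadrenal list had 6 of 17 members expressed, or 3 at a threshold of 2 TPM. There ISL1 stood at 9.92 and 10.6, HAND1 at 6.03 and 5.47 and GATA2 at 5.78 and 5.09 TPM, whereas TH, DBH and PHOX2A had 0 counts. PNMT, which makes adrenaline, was at 3.63 and 1.47. Among 27 neuronal markers 12 were expressed. UCHL1, a ubiquitin hydrolase abundant in neurons, reached 318 and 295 TPM, and the neurofilament NEFL 201.2 and 194. NEFM, a second neurofilament, stood at 58.4 and 49.1. SYP, a synaptic vesicle protein, stood at 8.42 and 7.83 and INA, another neurofilament, at 9.89 and 9.14. Of 8 defining members, NEFL and NEFM were the 2 expressed. TUBB3 held 3 and 9 counts, STMN2 5 and 0, RBFOX3 10 and 3, MAP2 4 and 23 and SNAP25 0 and 6, and DCX had none.

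Epithelial and mesenchymal markers stood side by side. Keratins of simple epithelia were expressed, KRT18 at 67.2 and 72.2 and KRT8 at 10.3 and 11.9 TPM. DSP, a desmosome protein, was at 63.9 and 52.3. CDH1, the epithelial cadherin, stood at 1.21 and 1.02 TPM, and CDH2, the neural and mesenchymal cadherin, at 60.3 and 51.8. EPCAM was uneven at 0.610 and 1.80. VIM, the intermediate filament of mesenchyme, reached 216 and 209 TPM, FN1 15.3 and 14.1 and SNAI2, a repressor of epithelial genes, 23.98 and 23.5. Fibroblast collagens were mixed, since COL1A1 stood at 0.329 and 0.558 TPM and COL1A2 had 0 counts, while COL3A1 was at 4.15 and 4.14. Epithelial genes were expressed in 10 of 22 (6 at a threshold of 2 TPM) and mesenchymal ones in 13 of 23. Their shares, 45.5% and 56.5%, were under the 57.6% over all protein-coding genes, so the counts do not set either list apart. These are bulk levels, so a few cells with much RNA and many cells with little cannot be told apart.

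Other lineages were represented by isolated genes. CEBPA, a factor of liver and fat, stood at 26.3 and 24.2 TPM, but ALB held 6 and 5 counts and APOB and TTR had none. NKX2-5, a cardiac homeobox factor, was at 33.6 and 38.3 TPM and TNNI3, a cardiac troponin, at 5.72 and 6.57, while MYH6 held 2 and 0 counts and TNNT2 none. CDX2, an intestinal homeobox factor, stood at 16.2 and 13.9, with FABP2 at 2 and 0 counts and MUC2 at 0. FLT1 was the only endothelial marker expressed, at 7.54 and 6.11 TPM. NKX2-1, a thyroid and lung factor, stood at 3.64 and 3.28. None of 16 germ cell markers was expressed, NANOS3 coming nearest at 0.693 and 1.62 TPM. OLIG2 was at 3.50 and 2.19 TPM and SOX10 held 4 and 0 counts.

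Embryonic growth genes were expressed in 9 of 17, 52.9%, against 57.6% over all protein-coding genes. Of the list 4 were at the floor, and its median was 4.62 TPM. HMGA1, an architectural chromatin protein, stood at 98.5 and 107 TPM. LIN28B, which blocks let-7 maturation, was at 65.99 and 63.1, whereas its paralog LIN28A had 0 counts. All 3 IGF2 mRNA-binding proteins were expressed, IGF2BP3 at 26.7 and 25.2, IGF2BP1 at 23.03 and 19.3 and IGF2BP2 at 17.2 and 13.6. GPC3, a fetal glypican, stood at 47.2 and 43.3 TPM. IGF2 itself had 0 counts, with 70.7% of its exon bases shared, and DLK1 and PEG3 had none either. Of the pluripotency list DNMT3B, SOX2, KLF4 and TERT were expressed, SOX2 at 7.72 and 6.72 and TERT at 1.87 and 1.71, while POU5F1 and NANOG had 0 counts. Among 31 cancer-testis antigens and their relatives 5 were expressed. MAGED2, a widely expressed relative, stood at 227 and 216 TPM and MAGED1, another, at 75.4 and 67.3. PRAME, a repressor of retinoic acid signalling, was at 5.54 and 5.56 TPM, and the GAGE and SSX genes on the list had 0 counts. Where such genes have near-identical copies, 0 counts are not evidence of a silent gene.

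**Figure D3:**
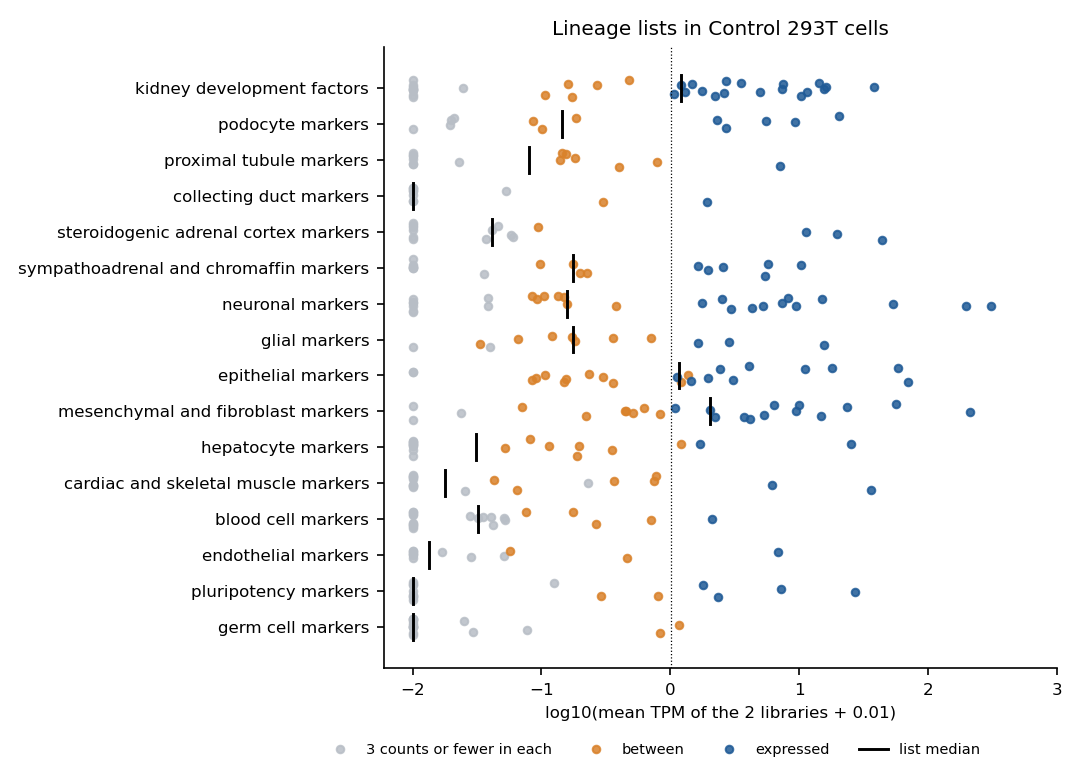
Each point is a gene of a lineage list, placed by log10 of its mean TPM in the 2 Control libraries plus 0.01, so that genes without counts sit at the left edge; blue is expressed, orange low and grey at the floor, with the list median as a black bar and 1 TPM as a dotted line. The kidney development, epithelial and mesenchymal lists have medians of 1.20, 1.16 and 2.03 TPM, and the other lists shown have medians under 1 TPM.

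Transcription factors were led by stress and growth factors. ATF4, the effector of the integrated stress response, reached 1638 and 1596 TPM and was the highest of all factors listed. XBP1, of the unfolded protein response, stood at 237 and 247, and JUN, a subunit of AP-1, at 162 and 181. ID2, which blocks basic helix-loop-helix factors, was at 172 and 162 TPM and its relative ID3 at 129 and 132. MYC stood at 98.3 and 99.1, while MYCN held 10 and 4 counts. DDIT3, a target of ATF4, was at 41.9 and 50.7 and ATF3 at 36.02 and 39.1. FOS, the usual partner of JUN, stood at only 4.04 and 5.47 TPM. Of the developmental families, GATA genes were expressed in 5 of 6 (3 at a threshold of 2 TPM), GATA6 highest at 8.59 and 7.51. PAX genes were expressed in 3 of 9, namely PAX3 at 4.87 and 5.61, PAX6 at 4.38 and 4.84 and PAX9 at 2.21 and 2.01. SOX4 was the highest SOX gene at 42.04 and 50.6 TPM, and POU4F1, a sensory neuron factor, the highest POU gene at 18.9 and 16.1. Nuclear receptors were led by NR2F6 at 47.6 and 51.8 and ESRRA at 47.2 and 47.3, with NR3C1, the glucocorticoid receptor, at 20.6 and 17.3. ESR1 held 0 and 1 counts and HNF4A 0 and 2.

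HOX genes, which specify position along the body axis in clusters read from anterior groups to posterior groups, were on in all 4 clusters. Of 39 genes 32 were expressed, a larger share than the 57.6% of protein-coding genes. Cluster A (chromosome 7) summed to 177 and 166 TPM, D (chromosome 2) to 122.9 and 114. Cluster B (chromosome 17) summed to 115 and 113, and C (chromosome 12) to 73.6 and 70.2. HOXD13, of the most posterior group, was the highest gene at 54.2 and 48.96 TPM. HOXA5 followed at 43.6 and 45.6, then HOXA10 at 41.2 and 39.3 and HOXB9 at 38.9 and 35.8. The median was 2.46 TPM over paralog groups 1 to 3, 4.86 over groups 4 to 8 and 14.8 over groups 9 to 13. Neighbouring genes were not at one level, since HOXC12 at 0.279 and 0.458 lay between HOXC11 at 12.6 and 10.05 and HOXC13 at 9.53 and 7.84, and HOXD12 stood at 0.443 and 0.207. HOXB1 was the only HOX gene with 0 counts. Neighbouring HOX genes share some exon bases, up to 59.9% in HOXC5, which stood at 0.379 and 0.355 TPM.

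**Figure D4:**
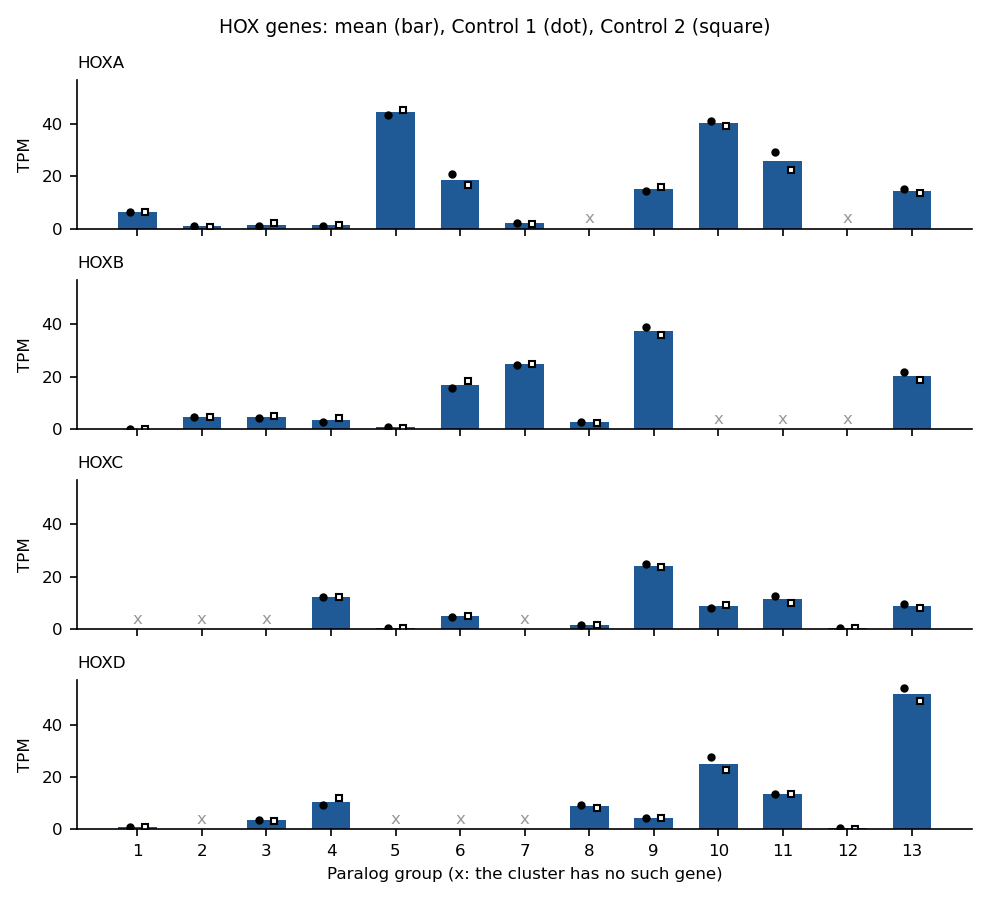
TPM of each HOX gene by paralog group in the 4 clusters; bars are means, dots Control 1 and squares Control 2, and x marks a group with no gene in that cluster. HOXD13, HOXA5, HOXA10 and HOXB9 are the highest, and group 12 is close to 0 in clusters C and D.

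The cytoskeleton was mainly of the nonmuscle kind by level. ACTG1 stood at 1271 and 1196 TPM and ACTB at 496 and 472, while the muscle actin ACTC1 had 0 counts and ACTA1 held 3 and 3. The smooth muscle actin ACTA2 was expressed at 2.53 and 1.94 TPM. TUBA1B led the alpha tubulins at 1418 and 1394 and TUBB4B the beta tubulins at 394 and 405. TUBB2B, a beta tubulin prominent in neurons, was at 112 and 114 TPM. The B-type lamin LMNB1 stood at 128 and 128 TPM and LMNB2 at 131 and 131. LMNA, the A-type lamin of stiffer tissues, was at 31.8 and 31.97. Among myosin heavy chains MYH10 was at 104 and 90.9 and MYH9 at 59.9 and 58.3 TPM, and the muscle genes MYH7 and MYH2 had 0 counts. MYH14, another nonmuscle chain, stood at 3.19 and 2.63 TPM and MYH3, the embryonic muscle chain, at 1.38 and 1.41.

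Receptors and channels commonly assayed in this line were present in part. Receptor tyrosine kinases were expressed in 34 of 58 genes, or 58.6%, close to the 57.6% over all protein-coding genes. EPHB4, an ephrin receptor, stood at 34.8 and 37.3 TPM. MET, the receptor of hepatocyte growth factor, was at 36.3 and 33.1, and FGFR3, a fibroblast growth factor receptor, at 31.8 and 32.4. ERBB2 stood at 16.6 and 15.6, well above its relative EGFR at 1.85 and 1.73. INSR, the insulin receptor, was at 13.6 and 11.1 TPM, and ALK and ROS1 had 0 counts. Among 81 G protein-coupled receptors 33 were expressed. FZD6, a Wnt receptor, stood at 27.5 and 30.8 and SMO, of the Hedgehog pathway, at 22.98 and 23.2 TPM. LPAR3, a receptor of lysophosphatidic acid, was at 25.9 and 23.4, and ADORA2B, an adenosine receptor, at 19.6 and 21.3. P2RY1, a receptor of ADP, stood at 11.8 and 11.1 and CXCR4, a chemokine receptor, at 12.8 and 16.2. OPRM1 and GLP1R had 0 counts and DRD1 held 0 and 1. Of 69 ion channels 24 were expressed (39 at 1 CPM in place of 1 TPM), led by CLCN3, a chloride transporter of endosomes, at 36.8 and 34.8 TPM. TRPM7, a magnesium channel with a kinase domain, was at 25.001 and 22.9, ANO6, a lipid scramblase, at 23.6 and 19.5 and PIEZO1, a channel opened by stretch, at 9.22 and 10.9. Potassium channel genes were expressed in 16 of 95 (26 at 1 CPM), KCNJ8 highest at 25.3 and 19.96. SCN9A, a sodium channel, stood at 1.19 and 1.18, and CFTR, GRIA2 and KCNA1 had 0 counts.

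Of 36 genes on uptake routes used by vectors and toxins 26 were expressed, or 72.2%, against 57.6% over all protein-coding genes. BSG, which malaria parasites bind on red cells, was the highest at 241 and 231 TPM. TFRC, the transferrin receptor, stood at 102 and 91.8 TPM. KIAA0319L, an adeno-associated virus receptor, stood at 21.9 and 22.3 TPM and CXADR, the coxsackievirus and adenovirus receptor, at 16.2 and 14.6. SLC20A2, a retrovirus receptor, stood at 13.95 and 13.3. TMPRSS2, a membrane protease, stood at 0.284 and 0.155. CD4 and SLC10A1 had 0 counts.

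Innate sensing was thin at the receptors and fuller downstream. No toll-like receptor was expressed, TLR6 being the highest at 0.246 and 0.390 TPM, and TLR2, TLR4, TLR7 and TLR8 had 0 counts. TLR9 had none either, with 86.3% of its exon bases shared. MYD88, their main adaptor, held 7 and 0 counts, while IRAK1 stood at 151 and 158 TPM. CGAS, the sensor of cytosolic DNA, held 1 and 8 counts, and STING1, its partner, stood at 1.97 and 1.87 TPM. RIGI, a sensor of viral RNA, was at 3.64 and 3.06 and IFIH1, another, at 0.403 and 0.273. The relay was expressed, with the adaptor MAVS at 12.5 and 11.1, the kinase TBK1 at 21.8 and 21.9 and the factor IRF3 at 28.2 and 30.1 TPM. Of the interferon-induced genes MX2 and OAS1 had 0 counts and MX1 held 2 and 3. Interferon genes were at the floor in all 21 cases. CASP1 and NLRP3 of the inflammasome and RIPK3 and MLKL of necroptosis had 0 counts. Apoptosis genes were present, with the pore former BAX at 31.3 and 30.03 and the inhibitor MCL1 at 115 and 111 TPM. Of class I antigen presentation, HLA-C stood at 146 and 149.7, HLA-B at 82.5 and 81.4 and their light chain B2M at 43.2 and 36.5 TPM. CIITA, which drives class II genes, held 6 and 2 counts, while the class II gene HLA-DQB1 stood at 14.3 and 14.9 TPM. HLA genes vary between people, and reads that differ from the reference can be lost.

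Metabolism of drugs was reduced to a few genes. GSTP1, a glutathione transferase, stood at 841 and 815 TPM, and GSTM1 and GSTA1 had 0 counts. Cytochromes P450 were expressed in 13 of 55. CYP2R1, which hydroxylates vitamin D, was the highest at 14.7 and 14.3, followed by CYP51A1 of sterol synthesis at 11.2 and 10.1 with 80.6% of its exon bases shared, while CYP3A4 had 0 counts. ABCC4 stood at 21.5 and 18.8 and ABCB1, the multidrug transporter, at 5.86 and 4.81 TPM. All 20 enzymes of cholesterol synthesis were expressed, FDPS, which makes farnesyl diphosphate, highest at 186 and 179.8. Imprinted genes were expressed in 8 of 27, with 12 at the floor. The highest were GNAS and GRB10. GNAS stood at 58.4 and 55.6 and GRB10 at 29.7 and 27.9 TPM, and NDN, MEG3 and NNAT had 0 counts. SNRPN and SNURF, which lie over each other and share 43.8% and 69.3% of their exon bases, had none either.

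Whole families were silent. Olfactory receptors were at the floor in 381 of 388 genes and expressed in none, with OR2W3 the highest at 1.21 and 0.339 TPM from 10 and 3 counts. All 30 late cornified envelope and small proline-rich genes, which build the skin barrier, had 0 counts. Defensins were at the floor in all 45 cases, and keratin-associated proteins of hair in 93 of 94, the exception being KRTAP19-1 at 4.13 and 2.42 TPM. Immunoglobulin and T cell receptor segments were at the floor in 403 of 408. No mucin and no clustered protocadherin was expressed, but protocadherin genes of a cluster share constant exons, so their counts are partial. Of 10 globins only HBQ1, a theta globin, was expressed, at 22.2 and 29.1 TPM.

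Other families ranged from mostly expressed to mostly not. Zinc finger proteins named ZNF, many of them repressors of repeats, were expressed in 391 of 510, ZNF146 highest at 152 and 145 TPM. Kinesins, motors along microtubules, were expressed in 32 of 39, with KIF5B at 135 and 130.2. Solute carriers were expressed in 176 of 339, or 51.9%, under the share over all protein-coding genes. SLC25A5, an ADP/ATP carrier, led at 1000.2 and 957 TPM, SLC16A1, a lactate carrier, stood at 228 and 213 and SLC1A5, a glutamine carrier, at 185 and 196. Collagens were expressed in 20 of 44, led by COL6A1 at 23.8 and 24.9 and COL2A1, the cartilage collagen, at 20.8 and 20.5. Integrins, the receptors for matrix, were expressed in 14 of 26, with the shared beta chain ITGB1 at 73.7 and 68.1 and ITGAV, which binds vitronectin, at 32.8 and 28.4. Collagens and integrins were under that share too. Connexins at 4 of 21 and claudins at 3 of 24 were far under it. GJA1, the connexin of many tissues, stood at 55.9 and 50.3 TPM.

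**Figure D5:**
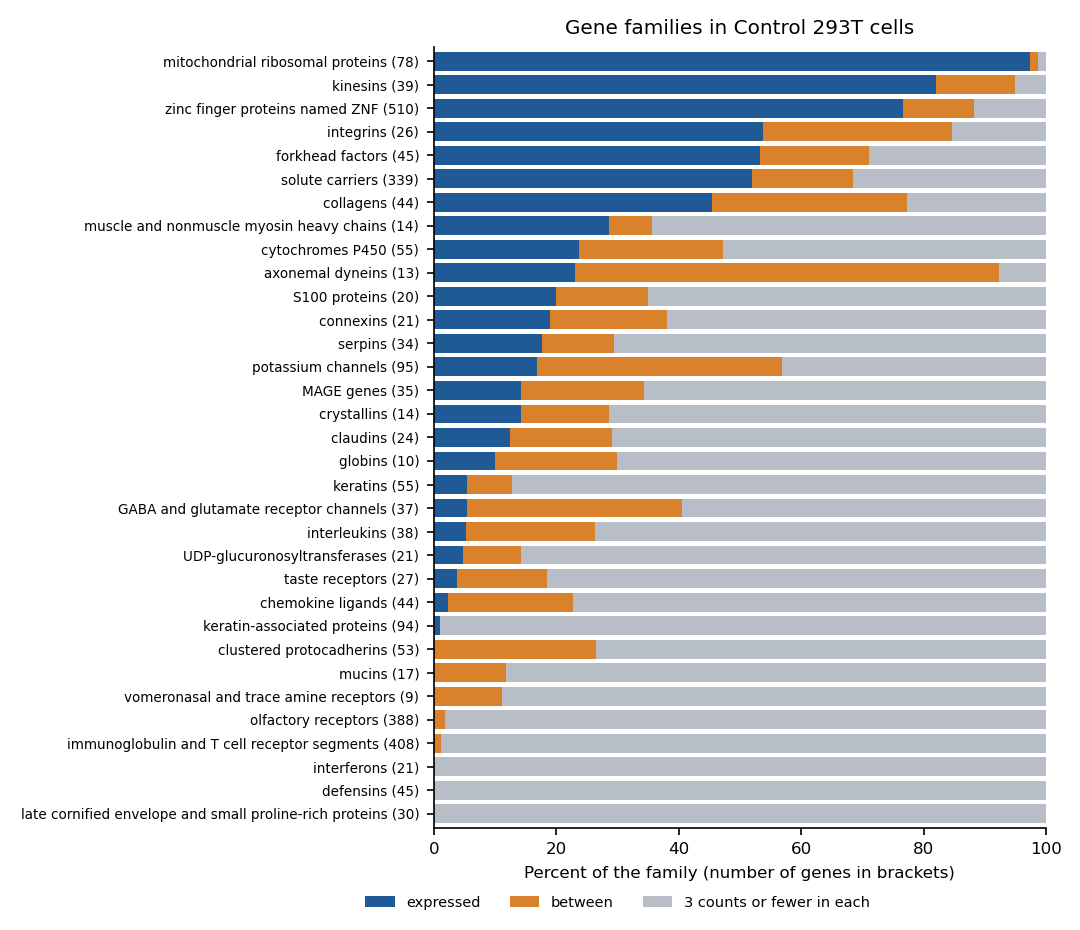
Percent of each gene family that was expressed (blue), low (orange) or at the floor (grey) in the Control libraries, with the number of genes in brackets. Mitochondrial ribosomal proteins, kinesins and ZNF genes lie at the top, and interferons, defensins and late cornified envelope genes at the bottom with no expressed member.

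Silent genes lay in long runs on the chromosomes, as families do. The longest run of neighbouring protein-coding genes at the floor held 55 genes on chromosome 11 from OR4C13 to APLNR (hg38, 49952391 to 57237314), 50 of them olfactory receptors, all with 0 counts. The next held 50 keratin and keratin-associated genes on chromosome 17 from KRT12 to KRT15 (40861303 to 41522529). A run of 43 genes on chromosome 1 from TCHHL1 to LELP1 (152084141 to 153205120) included 30 late cornified envelope and small proline-rich genes. The longest run of expressed genes was shorter, 25 genes on chromosome 2 from ERICH2 to WIPF1 (170783786 to 174682916).

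Promoter windows were compared between the classes as a description. CpG dinucleotides, the targets of DNA methylation, cluster in CpG islands at the starts of widely used genes. In the same 300-base RefSeq windows, taken at the first listed start of each gene (3980 genes had more than 1), there was a median of 27 CpG in 9500 expressed genes and 5 in 3162 genes without a count. At least 20 CpG were present in 75.1% of the former and 14.6% of the latter. Windows were found for 85.9% of expressed genes but only 71.7% of genes without a count, under 80%, so the second value holds for the genes found and not for the class. CCGGAAG, the letters of an ETS-type site searched on both strands, occurred in 20.5% of expressed windows and 14.4% of all. It was in 171 of 429 ZNF windows, 29 of 70 of mitochondrial ribosomal proteins and 8 of 16 of tRNA synthetases. CCAAT was in 15 of 17 windows of endoplasmic reticulum chaperones. TATAAA was in 61 of 80 windows of the silent keratin-associated proteins.

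CpG content alone did not separate the classes gene by gene, since 463 genes without a count had at least 20 CpG. To show the range, the 100 bases that end at base -1 are given for 2 highly expressed genes, 3 CpG-rich genes of other lineages without counts and 2 CpG-poor genes without counts, with each CG in capitals.
RPL35 (chr9:124861958-124862057, minus strand): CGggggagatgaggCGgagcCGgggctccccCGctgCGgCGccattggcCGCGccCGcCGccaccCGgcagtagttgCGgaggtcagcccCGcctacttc
TMSB10 (chr2:84905556-84905655, plus strand): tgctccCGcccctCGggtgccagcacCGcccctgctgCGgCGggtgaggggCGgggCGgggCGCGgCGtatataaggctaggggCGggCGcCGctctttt
PHOX2A (chr11:72244177-72244276, minus strand): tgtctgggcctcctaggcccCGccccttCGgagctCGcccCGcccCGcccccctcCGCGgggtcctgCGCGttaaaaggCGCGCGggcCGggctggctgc
SOX1 (chr13:112067049-112067148, plus strand): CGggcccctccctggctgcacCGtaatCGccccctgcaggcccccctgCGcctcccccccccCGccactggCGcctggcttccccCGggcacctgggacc
IRX1 (chr5:3595732-3595831, plus strand): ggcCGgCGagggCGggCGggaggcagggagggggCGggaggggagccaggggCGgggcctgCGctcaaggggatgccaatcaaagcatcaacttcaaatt
OR10A2 (chr11:6862957-6863056, plus strand): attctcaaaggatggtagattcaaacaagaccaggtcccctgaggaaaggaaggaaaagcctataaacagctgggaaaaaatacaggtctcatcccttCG
KRT12 (chr17:40867224-40867323, minus strand): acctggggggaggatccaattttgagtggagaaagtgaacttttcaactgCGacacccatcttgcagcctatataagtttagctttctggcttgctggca
RPL35 stood at 1836 and 1766 TPM with 37 CpG in its whole window, and TMSB10, which binds actin monomers, at 2197 and 1992 with 35. PHOX2A, SOX1 and IRX1, factors of autonomic neurons, neural progenitors and patterning, had 34, 37 and 38 CpG and 0 counts. OR10A2, an olfactory receptor, had 1 and KRT12, a keratin of the cornea, 2. These windows say nothing of methylation, which was not measured in these libraries.

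The 2 libraries gave close values. Over 14047 genes with at least 50 counts in total, Pearson's r of log2 CPM was 0.989 and Spearman's rho 0.994, across genes, which are not independent replicates. The median absolute log2 ratio was 0.13, against 0.06 from counting error alone. It ran from 0.39 at 50 to 200 counts to 0.04 in the band of highest counts, so small differences between genes of few counts, as between neighbours in a list near 1 TPM, cannot be read. Among genes with at least 100 counts in each library the ratio of Control 2 to Control 1 ran from -1.004 to 0.97 on the log2 scale. The lowest was RN7SKP80, a 7SK-like pseudogene, with 2302 and 1165 counts. All 7 such pseudogenes with at least 50 counts in each library were lower in Control 2, with a median of -0.95. They resemble RN7SK, whose own entry was at the floor, so the 7 may not be separate observations. Whether their reads came from a single RNA was not tested. Mitochondrial messenger RNAs had a median of -0.31 over 10 genes, ribosomal proteins -0.04 and histones 0.07. The highest ratio was that of MRPL12, a mitochondrial ribosomal protein, with 172 and 343 counts and 69.5% of its exon bases shared. Whether these differences came from the cells or the libraries cannot be told apart with 1 library on each side.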

How the data were processed

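Total RNA of 293T cells was extracted with TRIzol and made into stranded libraries with a TruSeq Stranded Total RNA Gold kit, per the labels' protocols. The tools named are FastQC 0.11.4, Trim Galore 0.6.10 and STAR 2.7.5a with the build hg38, per the submitters' processing notes, which also name DESeq2 1.36.0. The deposited values are raw counts per gene, made with featureCounts 2.0.1 on GENCODE 34 in paired and reverse-stranded mode with a minimum mapping quality of 10, per the file headers; the processing notes name featureCounts 1.5.0-p1 instead. The header lists no option to count reads shared by genes.

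From the 2 Control files CPM was computed over the column total and TPM from the count and the deposited Length over all 60669 genes. Gene names came from the tables at hand for 42288 genes, and RNA classes from GENCODE 29, which lacked 2187 of them. Exon sharing was computed from the deposited exon coordinates on the same strand. Promoter windows, for 15422 of 19141 protein-coding genes with chromosomes 8 and Y left out, and miRNA sequences came from RefSeq on GRCh38.p14.

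A gene was expressed at 1 TPM and 10 counts in both libraries and at the floor with 3 counts or fewer in each. Named genes were the highest RNAs of the file, up to 6 highest genes of each list with its defining members and exceptions, the highest transcription factors, and the widest ratios between the 2 libraries, and part of these are printed. Gene lists and the choice of these libraries were made with earlier results of these data known. No group was compared and no test was run, since the description rests on 1 group of 2 libraries. Wilson intervals cover counting error only, as the reads carry no molecular identifiers.

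Alternatives were other TPM and CPM thresholds, TPM over fewer genes, no count minimum, each library alone, and TMM scaling with edgeR 4.0.16. Python 3.11.15 with pandas 2.3.3 and scipy 1.17.1 was used.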

Additional observations from a re-analysis of the deposited data

How the results depend on the processing

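The number of expressed genes, 13521, ranged from 12080 at 2 TPM to 14608 at 0.5 TPM over the alternatives that keep all gene classes. TPM over protein-coding genes only gave 12031 expressed protein-coding genes. With 1 library left out, which drops its threshold too, it was 14166 and 14378. The 11448 protein-coding genes ranged from 10577 at 2 TPM to 12140 at 1 CPM. Leaving out genes that share 50% or more of their exon bases gave 13416, and leaving RN7SL1, RN7SL3 and SNORD3A out of TPM gave 14344, both chosen after seeing the data. Of 117 gene lists and families, 12 moved by over 1.5 times at 2 TPM, 10 at 1 CPM, 7 with TPM over protein-coding genes only and 5 or fewer under each other setting. At 2 TPM the epithelial list went from 10 to 6 members, SOX genes from 8 to 5, GATA genes from 5 to 3 and sympathoadrenal markers from 6 to 3, so these lists rest on genes near the threshold. At 1 CPM the ion channels went from 24 to 39. By TPM in place of counts the mean share was 56.1% for protein-coding genes, 33.6% for RN7SL1, 3.77% for SNORD3A, 1.10% for long noncoding RNA and 0.285% for mitochondrial messenger RNA. The median absolute log2 ratio of the 2 libraries was 0.10 from 200 counts in total and 0.20 from 1 count in each. Low genes had a median of 15 CpG when classed by CPM and 18 by TPM. No paired analysis was possible because a single group of 2 libraries was described. This depth cannot separate a silent gene from one at a few counts, and short or duplicated genes are read least well.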

Other observations

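Some sets of related genes that code for alternative forms of a protein had members at very different levels. ATP1B3, a beta chain of the sodium pump, was at 87.6 and 83.2 TPM and ATP1B1, the chain of kidney epithelia, at 24.998 and 24.6. Of 11 glucose transporters 8 were expressed. The common SLC2A1 was the highest at 32.4 and 28.97 TPM, and SLC2A2, the liver and islet form, had 0 counts. COX6A1 and COX7A2, the widely used chains of cytochrome oxidase, were at 283 and 263 TPM and at 223 and 182 TPM, and the muscle form COX7A1 had 0 counts.

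Families with few expressed members had some at clear levels. Crystallins were expressed in 2 of 14, serpins in 6 of 34 and S100 genes in 4 of 20. CRYGD, a crystallin of the eye lens, stood at 9.06 and 9.15 TPM. SERPINF1, a secreted serpin that restrains vessel growth, was at 50.995 and 49.04 and SERPINH1, a collagen chaperone, at 38.9 and 34.9. S100A10, which binds annexin A2, stood at 75.6 and 76.1 TPM. T-box genes were expressed in 8 of 17 and IRX genes in 3 of 6. Among factors of embryonic patterning, ISL2 of motor neurons was at 14.2 and 17.1, TBX3 of limb and heart at 11.3 and 10.8 and TBX18 of the ureter mesenchyme at 8.05 and 7.77, with TBX5 at 0 counts. IRX3 stood at 6.45 and 8.67 TPM and IRX1, on another chromosome, had 0 counts. Among the autosomes and X the share of expressed protein-coding genes ran from 44.6% on chromosome 21, which carries a large keratin-associated cluster, to 63.8% on chromosome 14.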
